A study of Rattus norvegicus with 12 samples.

Results

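Animal cells build cholesterol and long-chain fatty acids from acetyl-CoA, and 33 genes of this synthesis and its control were followed here in neonatal rat heart muscle cells. They comprise 18 enzymes of sterol synthesis, 6 genes that sense sterols or regulate the pathway, 7 genes of fatty acid synthesis, elongation and desaturation, and 2 transporters that export cholesterol. Members were chosen by symbol for their place in the pathway, and with earlier results of these data known. Counts over them are therefore no independent test. All 33 were found among the 32883 genes of the deposited tables, and all 33 passed the filter on low values, so that each belongs to the 13793 genes tested.

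The pathway is governed by the sterol regulatory element-binding proteins (SREBPs), transcription factors held in membranes and encoded by Srebf1 and Srebf2. When membrane cholesterol is low, the escort protein SCAP carries the SREBPs to the Golgi, where they are cut and released to activate genes of sterol and fatty acid synthesis. When sterols are plentiful, INSIG proteins retain SCAP in the endoplasmic reticulum, and the oxysterol-sensing LXR receptors raise the exporters ABCA1 and ABCG1.

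RNA was sequenced from cardiomyocytes of Sprague-Dawley rats 1 to 3 days old after 24 h of treatment, in a study whose title concerns P-TEFb complexes, which release paused RNA polymerase II, in hypertrophy driven by G protein-coupled receptors. Without JQ1, cells received DMSO together with acetic acid (the vehicle group), 100 nM endothelin-1 (the ET-1 group, acting on endothelin receptors) or 10 µM phenylephrine (the PE group, acting on alpha-1 adrenergic receptors). The other 3 groups received the same agents with 1 µM JQ1, which displaces BET bromodomain proteins from acetylated chromatin, in place of DMSO. All 6 groups shared plating in 7% serum, a change to medium with ITS supplement in place of serum, and 10 µM AraC, which kills dividing cells, until 24 h before treatment. Each group held 2 libraries, 12 in all, and the labels do not say how many animals they came from or whether animals were pooled. The replicates may therefore be technical, in which case a p-value reflects no more than the spread among these libraries.

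Values are FPKM (fragments per length of transcript and depth of library) summed per gene and rescaled between libraries, and a pair of values gives replicate 1 and then replicate 2. Coverage amounted to 2.34 to 2.97 gigabases per library. A difference is that of log2(rescaled FPKM + 0.5), which understates the change of low genes. A gene is said to have risen or fallen where limma's adjusted p was below 0.05 over all 13793 genes. The fit with the replicate block adds the replicate number as a term, because same-numbered libraries deviated together.

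The libraries carried the label's cell type. The 8 cardiomyocyte markers, among them Tnnt2 and Myh6, summed to 12710 to 28030 rescaled FPKM, with none at 0. The 8 fibroblast markers, among them Col1a1 and Pdgfra, summed to 506 to 1334 in replicate 1 and 109 to 324 in replicate 2, and all 8 were higher in replicate 1 in every group. The 9 macrophage markers summed to 10.1 to 22.0 in replicate 1 and 2.95 to 9.56 in replicate 2, with Adgre1, Ptprc and C1qb at 0 in at least 1 library. Of 8 endothelial markers, 7 were in the tables and summed to 0.287 to 5.52, with Cdh5, Vwf, Emcn and Cldn5 at 0 in at least 1 library. The 6 smooth muscle markers summed to 380.8 to 848. In RNA from bulk samples, fewer cells of a type and less RNA per cell cannot be told apart.

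SREBPs act together with the factor NF-Y, which binds CCAAT boxes near the start of many sterol genes. RefSeq promoters (build GRCr8) were matched for 25 of the 33 members, and the 250 bases before the start were searched on both strands. CCAAT stood in 19 of the 25 members, among them 12 of 15 matched enzymes, and in 34.0% of the 33469 promoters of the table. The sterol regulatory element TCACNCCAC stood in 0 of 25 members and in 0.974% of all promoters, which says only that these letters are not in the window searched. The E-box CACGTG stood in 5 of 25 members (Insig1, Sc5d, Scap, Elovl5 and Abca1) and in 5.59% of all promoters. The DR4 element of LXR, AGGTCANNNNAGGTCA, stood in 0 of 25 members and in 0.00299% of all promoters. The 120 bases before the start follow for Idi1, Mvd and Hsd17b7, enzymes that rose with an agonist, and for Fdps, whose difference with ET-1 was the largest of any member. Each stretch holds 1 or 2 CCAAT boxes, written in capitals as CCAAT or, on the opposite strand, as ATTGG.
Idi1 (GRCr8 chr17:66547525-66547644, minus strand): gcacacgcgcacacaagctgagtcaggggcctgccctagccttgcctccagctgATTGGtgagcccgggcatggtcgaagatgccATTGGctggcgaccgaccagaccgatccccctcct
Mvd (GRCr8 chr19:67414975-67415094, minus strand): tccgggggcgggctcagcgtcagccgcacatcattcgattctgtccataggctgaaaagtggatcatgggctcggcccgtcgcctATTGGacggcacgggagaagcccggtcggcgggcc
Hsd17b7 (GRCr8 chr13:84722755-84722874, minus strand): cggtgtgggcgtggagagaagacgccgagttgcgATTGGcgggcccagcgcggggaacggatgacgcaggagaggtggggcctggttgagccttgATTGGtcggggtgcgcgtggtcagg
Fdps (GRCr8 chr2:176804817-176804936, minus strand): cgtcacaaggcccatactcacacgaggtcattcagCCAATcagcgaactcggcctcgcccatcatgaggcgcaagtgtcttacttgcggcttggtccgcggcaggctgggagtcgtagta
These letters describe the promoters and do not show that a factor was bound.

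ET-1 and PE both came with higher levels of the sterol synthesis enzymes. All 18 enzymes were higher with ET-1 than with vehicle and all 18 were higher with PE, in replicate 1 and in replicate 2 alike. Their median log2 difference was 0.86 with ET-1 and 0.80 with PE, beside −0.02 and −0.01 over all genes tested. The 2 comparisons share the vehicle libraries. With ET-1 the enzymes Mvd and Hsd17b7 rose, and with PE Mvd, Idi1 and Hsd17b7 rose. With the replicate block 10 of the 18 enzymes rose with ET-1 and 13 of 18 with PE.

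Over all 33 members, 3 rose with ET-1 (Mvd, Hsd17b7 and Elovl5), against 1.31% of all genes. With the block 13 rose and 1 fell, against 8.89% and 9.5% of all genes. With PE 4 members rose (Mvd, Idi1, Hsd17b7 and Elovl5), against 2.89% of all genes. With the block 16 rose and 1 fell, against 11.8% and 12.2% of all genes. These calls depended on the scale and on each library: on FPKM as deposited 0 members passed in either comparison without the block. Calls also became fewer over all 13793 genes there, at 208 with ET-1 and 532 with PE in place of 396 and 837. That scale moved the median of all genes to −0.10 with ET-1 and −0.13 with PE, and all 18 enzymes were still higher with each agonist on it. With any 1 of the 4 libraries left out, fewer members passed with either agonist, both without the block and with it. A group then holds 1 library, and calls over all genes are not given there. Whether this loss is particular to the members cannot be told.

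**Figure D1:**
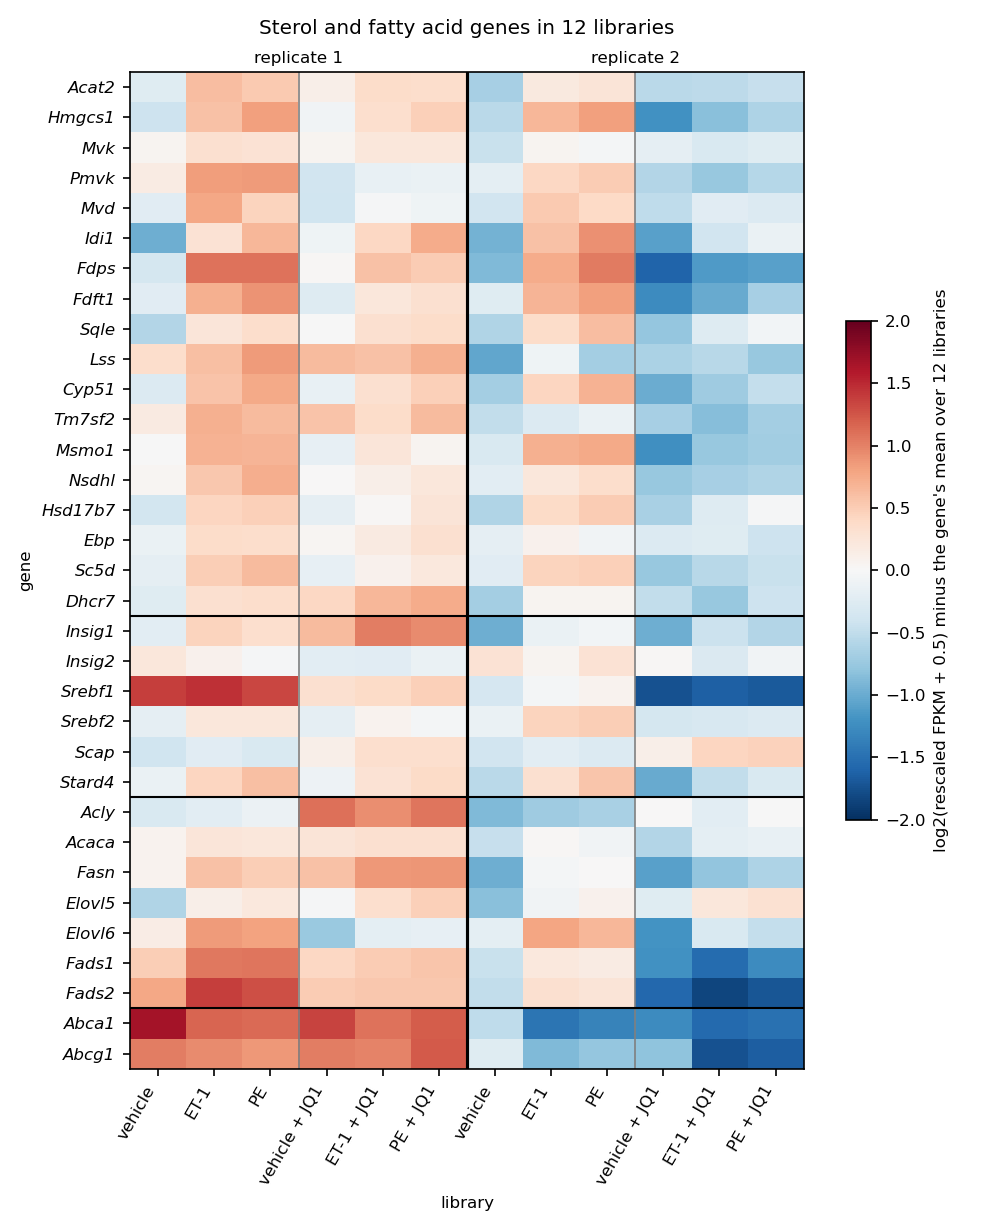
Heat map of the 33 genes (rows, in 4 blocks: 18 sterol enzymes, 6 regulators, 7 fatty acid genes, 2 exporters) in 12 libraries (columns, replicate 1 left and replicate 2 right), coloured by log2(rescaled FPKM + 0.5) minus the gene's mean over the libraries. The sterol enzymes are redder with ET-1 and PE than with vehicle in both replicates, and the JQ1 libraries are redder in replicate 1 than in replicate 2 for most genes.

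The mevalonate steps moved as follows. Hmgcs1, which makes HMG-CoA, stood at 102 and 92.9 FPKM with vehicle, at 204 and 215 with ET-1 and at 239.8 and 241 with PE. The vehicle libraries lay below all 4 agonist libraries, by a log2 difference of 1.10 ± 0.49 SE with ET-1 (adjusted p = 0.26, with the block 0.065) and 1.3 ± 0.49 with PE (adjusted p = 0.16, with the block 0.033). Pmvk, which phosphorylates mevalonate 5-phosphate, stood at 35.7 and 27.7 with vehicle, at 56.9 and 42.5 with ET-1 and at 57.4 and 45.3 with PE. Replicate 2 was the lower library in each of these groups, and the groups did not overlap. The difference of Pmvk was 0.64 with ET-1 and 0.69 with PE, and it passed with the block alone (adjusted p = 0.0042 and 0.0024).

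Mvd, the decarboxylase that closes the mevalonate steps (rn6 chr19:55258905-55268951, minus strand), rose with both agonists. It stood at 15.1 and 13.6 FPKM with vehicle, at 30.9 and 25.9 with ET-1 and at 24.5 and 23.6 with PE. All 4 agonist libraries lay above both vehicle libraries, and replicate numbers differed little. The rise was 1.98-fold with ET-1 (log2 difference 0.96 ± 0.12 SE, adjusted p = 0.014) and 1.67-fold with PE (0.72 ± 0.12, adjusted p = 0.017). With a library left out its adjusted p reached 0.10 with ET-1 and 0.13 with PE, and with the block it stayed at or below 0.011 and 0.013.

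Idi1, which isomerises isopentenyl diphosphate (rn6 chr17:57976268-57984036, minus strand), had the largest fold of any member with PE. It stood at 39.2 and 40.3 FPKM with vehicle, at 94.8 and 117 with ET-1 and at 123 and 147 with PE. Both agonist groups lay far above vehicle, and PE lay above ET-1 in the same replicate. Idi1 rose 3.39-fold with PE (1.75 ± 0.40, adjusted p = 0.044). With ET-1 it was 2.66-fold higher (1.39 ± 0.40), which passed with the block alone (adjusted p = 0.11, with the block 0.03). With a library left out the PE call was lost in all 4 cases, at adjusted p of 0.12 to 0.25, and with the block it held in 2 of 4.

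Fdps, which makes farnesyl diphosphate, was the most abundant member. It stood at 210.2 and 145 FPKM with vehicle, at 571 and 448 with ET-1 and at 574 and 553 with PE. The agonist groups did not overlap with vehicle, whose replicates themselves differed. The difference was 1.53 ± 0.73 with ET-1 (adjusted p = 0.29, with the block 0.045) and 1.69 ± 0.73 with PE (adjusted p = 0.22, with the block 0.027). Sqle, the squalene epoxidase that sets the pace of the later steps, stood at 20.8 and 20.6 with vehicle, at 37.5 and 41.0 with ET-1 and at 40.5 and 48.3 with PE. Every agonist library lay above every vehicle library, with differences of 0.90 and 1.07 that passed with the block alone (adjusted p = 0.037 and 0.017).

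Hsd17b7, a reductase of sterol demethylation (rn6 chr13:88288046-88307988, minus strand), was among the lowest members and rose with both agonists. It stood at 2.52 and 2.06 FPKM with vehicle, at 4.70 and 4.53 with ET-1 and at 4.87 and 4.997 with PE. The groups did not overlap, and the rise was 0.88 ± 0.18 with ET-1 (adjusted p = 0.047) and 0.97 ± 0.18 with PE (adjusted p = 0.027). It lost the call with each library left out unless the block was fitted, and with the block it kept it in all 4 cases for each agonist.

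Of the remaining 11 enzymes, Acat2, Mvk, Cyp51 and Sc5d rose with both agonists with the block, and Fdft1 and Nsdhl with PE. Cyp51, the lanosterol demethylase, differed by 0.97 and 1.21 with ET-1 and PE, Acat2 by 0.86 and 0.84, and Sc5d by 0.68 and 0.76. Fdft1, the squalene synthase, differed by 0.93 and 1.09. Msmo1, Lss, Tm7sf2, Ebp and Dhcr7 did not pass in either fit, with differences between 0.30 and 0.88. Groups did not overlap, with the agonist higher, for 16 of the 18 enzymes with ET-1 and 15 with PE, against 25.7% and 27.0% of all genes. Levels of Lss are uncertain, because its FPKM was spread over 4 transcripts and one of 180 nt carried 6.21 to 47.0% of it.

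**Figure D2:**
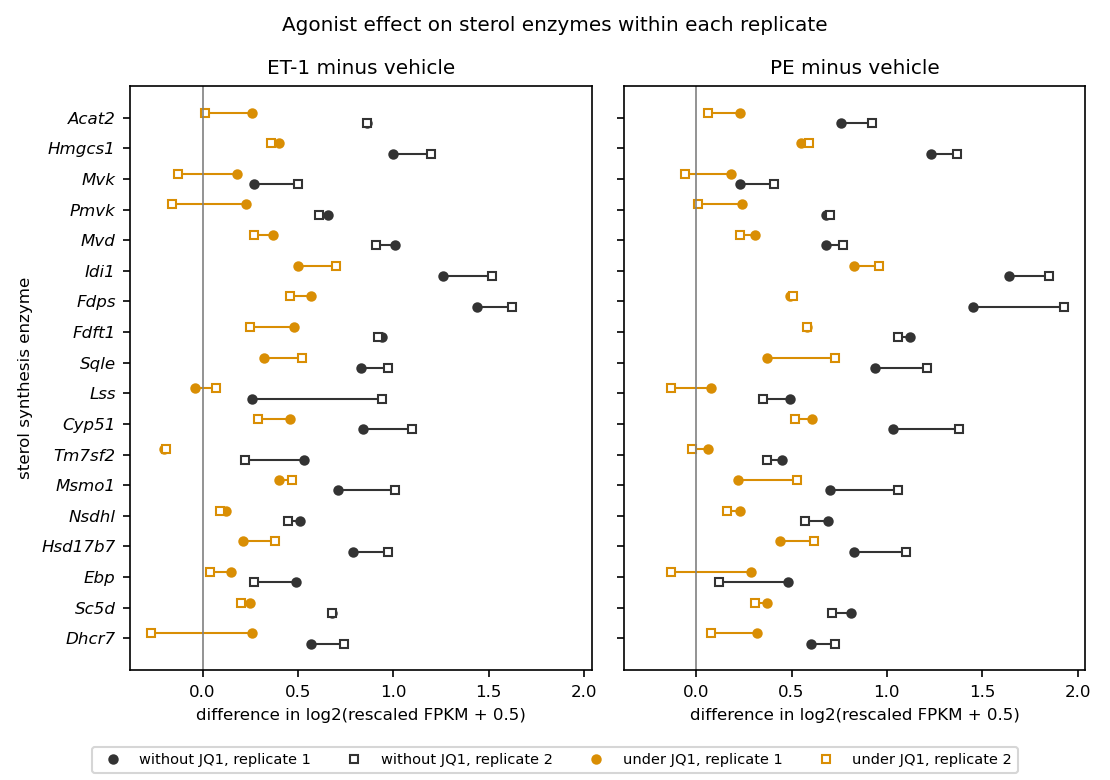
Difference in log2(rescaled FPKM + 0.5) between ET-1 (left) or PE (right) and vehicle for the 18 sterol enzymes, within replicate 1 (filled circles) and replicate 2 (open squares), without JQ1 (black) and under JQ1 (orange). Every black point lies above 0, and for every enzyme the mean of the orange points is lower than that of the black points.

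Among the regulators, the agonist differences were smaller. Srebf2, the SREBP most tied to sterol genes, stood at 23.5 and 24.3 FPKM with vehicle, at 31.2 and 36.4 with ET-1 and at 31.3 and 37.6 with PE. The agonist libraries lay above vehicle without overlap, by 0.48 ± 0.16 and 0.51 ± 0.16, and neither passed (adjusted p = 0.15 and 0.10, with the block 0.068 and 0.05, the latter just short of the threshold). Srebf1, the SREBP most tied to fatty acid genes, stood at 35.8 and 10.6 with vehicle, at 37.6 and 13.1 with ET-1 and at 34.6 and 14.1 with PE. Its replicates lay further apart than any of these groups, and the differences of 0.18 and 0.17 did not pass in either fit.

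Insig1, itself a known SREBP target that closes the feedback loop, stood at 64.2 and 37.4 FPKM with vehicle, at 101 and 67.8 with ET-1 and at 94.6 and 71.5 with PE. The agonist libraries were the higher in each replicate, by 0.75 and 0.74 on average, without passing (adjusted p with the block 0.12 for each). Stard4, which shuttles sterol between membranes, stood at 14.1 and 10.5 with vehicle, at 21.1 and 19.6 with ET-1 and at 23.9 and 23.0 with PE. Its groups did not overlap, and it rose with the block (0.72 with ET-1, adjusted p = 0.048, and 0.92 with PE, adjusted p = 0.018). Scap, the escort, ranged over 11.6 to 13.3 across these 6 libraries, and Insig2, the isoform not driven by SREBP, over 18.3 to 22.7. Neither passed in either fit, with differences of 0.17 and 0.09 for Scap and −0.19 and −0.12 for Insig2.

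In the fatty acid arm, the elongase Elovl5 was the member that rose with both agonists (rn6 chr8:85259982-85285983). Elovl5, which lengthens polyunsaturated fatty acids, stood at 29.4 and 25.1 FPKM with vehicle, at 48.8 and 43.0 with ET-1 and at 52.1 and 47.8 with PE. All agonist libraries lay above vehicle, by 0.74 ± 0.12 with ET-1 (adjusted p = 0.026) and 0.87 ± 0.12 with PE (adjusted p = 0.012). With the block it kept both calls with each library left out, and without it 1 of 8. Elovl6, which lengthens saturated and monounsaturated chains, stood at 4.78 and 3.66 with vehicle, at 8.11 and 7.67 with ET-1 and at 7.81 and 7.01 with PE. It did not overlap either, and its differences of 0.84 ± 0.18 and 0.75 ± 0.18 missed the threshold narrowly (adjusted p = 0.052 and 0.051) and passed with the block (0.0033 for each).

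Acaca and Fasn, of fatty acid synthesis itself, did not pass without the block or with it. Acaca, the acetyl-CoA carboxylase, stood at 14.3 and 9.67 FPKM with vehicle, at 16.1 and 13.8 with ET-1 and at 16.0 and 12.8 with PE. Fasn, the fatty acid synthase, stood at 35.1 and 16.6 with vehicle, at 50.4 and 32.4 with ET-1 and at 46.9 and 33.5 with PE. Both were higher with an agonist in each replicate, but the groups overlapped, and adjusted p with the block was 0.12 to 0.17. Acly, which makes acetyl-CoA from citrate, and the desaturases Fads1 and Fads2 differed by 0.13 to 0.71 without passing.

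The exporters went the other way. Abca1, which loads cholesterol onto apolipoproteins, stood at 23.9 and 4.87 FPKM with vehicle, at 16.6 and 2.30 with ET-1 and at 16.4 and 2.54 with PE. Replicate 1 was 4.90 to 7.75 times replicate 2 in the 6 groups, and within each replicate vehicle was the highest. Abca1 fell with the block, by 0.73 on the log2 scale with ET-1 (adjusted p = 0.0084) and by 0.67 with PE (adjusted p = 0.0082), and it did not pass without it (adjusted p = 0.85 for each). Without the block, leaving out replicate 1 of vehicle or replicate 2 of the agonist turned its sign, to 0.37 and 0.58 with ET-1 and 0.42 and 0.56 with PE. Abcg1, which exports cholesterol to mature lipoproteins, stood at 37.3 and 15.2 with vehicle, at 35.4 and 9.61 with ET-1 and at 33.5 and 10.4 with PE. It was lower with an agonist in each replicate, by 0.36 and 0.34 on average, and passed in neither fit. Fibroblast markers were also lower with an agonist, by a median log2 of 0.54 with ET-1 and 0.38 with PE. With the block 7 and 4 of 8 fell, against 9.5% and 12.2% of all genes. Without it 0 of these 8 markers fell with either agonist, against 1.57% and 3.18% of all genes. Their part in the exporters' difference was not tested.

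**Figure D3:**
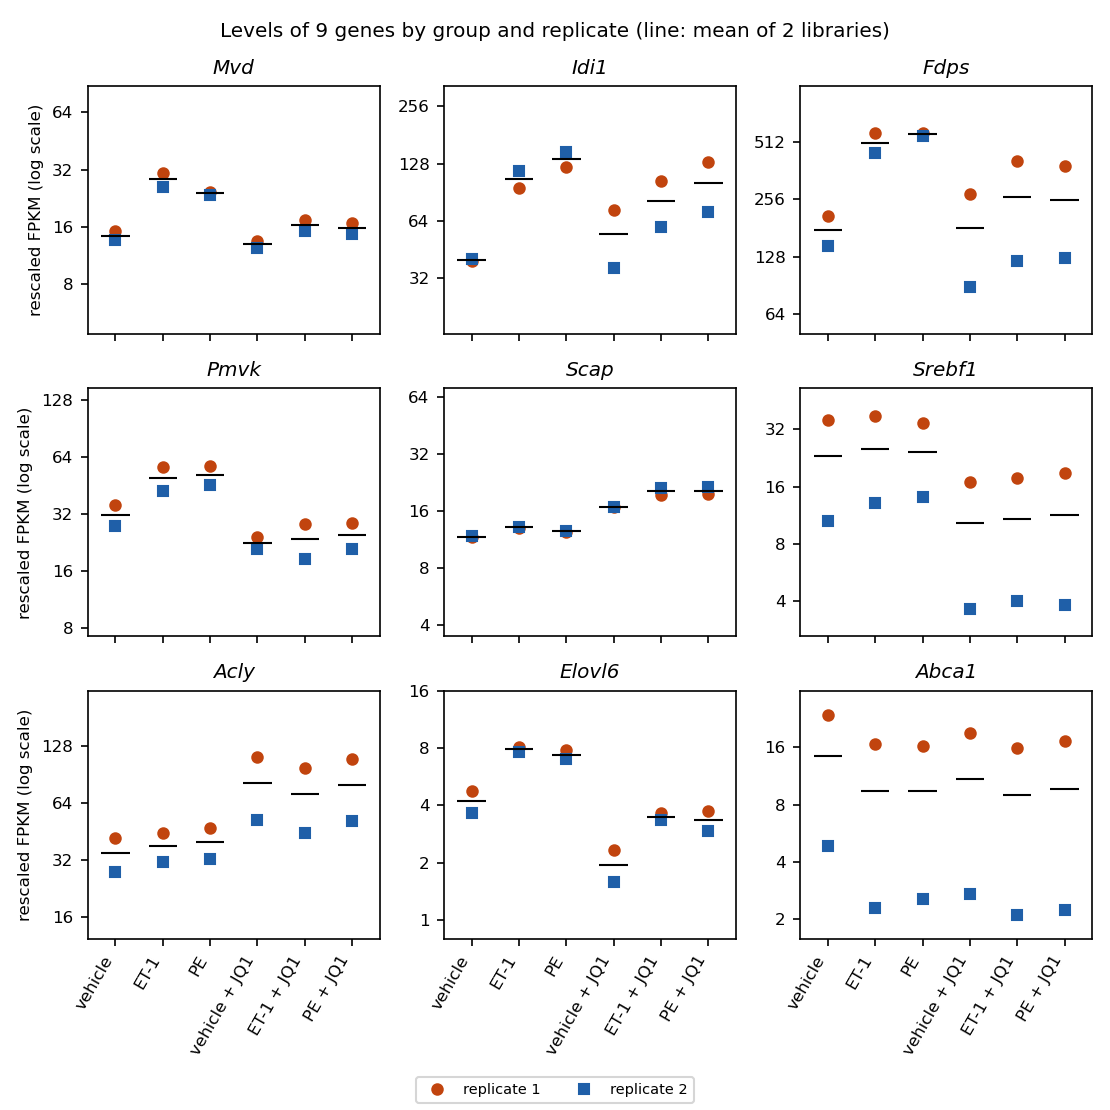
Rescaled FPKM (log axis, each panel spanning the same ratio) of 9 genes in the 6 groups, with replicate 1 as circles, replicate 2 as squares and a line at the mean of the 2 libraries. Mvd and Scap have replicates within 1.19-fold of each other in every group, Idi1 and Fdps separate by replicate with JQ1, and Srebf1, Acly and Abca1 are higher in replicate 1 throughout.

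JQ1 moved the members in different directions. Scap rose and Elovl6 fell in all 3 treatments. Pmvk and Mvd fell in ET-1-treated and PE-treated cells, Srebf2 fell in PE-treated cells, and Elovl5 rose in vehicle-treated cells. The median of the 18 enzymes was −0.03 in vehicle, −0.59 in ET-1 and −0.54 in PE, beside 0.01, 0.03 and 0.01 over all genes. The enzymes split evenly in vehicle (9 higher and 9 lower) and all 18 were lower on average with JQ1 in each agonist group.

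In vehicle-treated cells 2 of 33 members rose and 1 fell, against 15.3% and 16.7% of all genes. With the block 3 rose and 5 fell, against 24.9% and 27.9%. In ET-1-treated cells 1 member rose and 3 fell, against 17.9% and 19.6%, and with the block 3 rose and 17 fell, against 27.1% and 29.8%. In PE-treated cells 1 rose and 4 fell, against 17.5% and 19.0%, and with the block 3 rose and 15 fell, against 26.7% and 29.7%. The share of members called lay below that of all genes except for those that fell with the block in ET-1 and in PE. The 17 that fell in ET-1 with the block were 11 enzymes, 3 regulators and 3 fatty acid genes, and the 15 in PE were 10, 2 and 3. With the block, far fewer members were called with replicate 2 of either group left out than with replicate 1 left out, in ET-1 and in PE. Without the block the number of members called shifted as well. In these fits a group holds 1 library, and calls over all genes are not given. It cannot be told whether the shifts are particular to the members.

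Scap, the SREBP escort (rn6 chr8:118570503-118628651), was nearly equal between replicates. It stood at 16.8 and 16.8 FPKM in vehicle with JQ1, at 19.5 and 21.1 in ET-1 with JQ1 and at 19.6 and 21.3 in PE with JQ1. Every JQ1 library lay above every library without JQ1. The rise was 0.51 ± 0.07 in vehicle (adjusted p = 0.0017), 0.60 ± 0.07 in ET-1 (adjusted p = 0.00055) and 0.69 ± 0.07 in PE (adjusted p = 0.00036), and it kept the call with each library left out. Its FPKM moved between 2 transcripts of near-equal length, so the gene's sum is given and not its transcripts.

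Srebf1 fell in all 3 treatments with the block. It stood at 16.9 and 3.64 FPKM in vehicle with JQ1, at 17.7 and 3.99 in ET-1 with JQ1 and at 18.9 and 3.82 in PE with JQ1. Within a replicate each JQ1 library lay below each library without JQ1, but the replicates lay so far apart that the groups overlapped. The log2 difference was −1.24, −1.33 and −1.3 (adjusted p with the block 0.0018, 0.0011 and 0.0012, without it 0.43, 0.38 and 0.39). Srebf2 stood at 23.5 and 20.7 in vehicle with JQ1, at 28.1 and 21.1 in ET-1 with JQ1 and at 26.0 and 22.1 in PE with JQ1. It fell by 0.51 ± 0.16 in PE (adjusted p = 0.038). It lost the call with each library left out, at adjusted p of up to 0.19, and with the block kept it in 2 of 4 cases. In ET-1 its difference of −0.46 passed with the block alone (adjusted p = 0.054, with the block 0.036).

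Stard4 stood at 14.5 and 7.53 FPKM in vehicle with JQ1, at 19.0 and 10.9 in ET-1 with JQ1 and at 20.4 and 12.6 in PE with JQ1, and did not pass in either fit. Insig2 fell with the block in vehicle (by 0.35, adjusted p = 0.017) and in ET-1 (by 0.33, adjusted p = 0.021). Insig1 stood at 116 and 37.8 in vehicle with JQ1, at 153 and 54.9 in ET-1 with JQ1 and at 144 and 49.7 in PE with JQ1. In replicate 1 these lay above the matching library without JQ1, and in replicate 2 they were near it or below, so that the mean differences of 0.43, 0.14 and 0.04 did not pass.

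Of the mevalonate enzymes, Pmvk was lower with JQ1 in both replicates. It stood at 24.3 and 20.9 FPKM in vehicle with JQ1, at 28.5 and 18.6 in ET-1 with JQ1 and at 28.8 and 21.1 in PE with JQ1. It fell 1.08 ± 0.26 in ET-1 (adjusted p = 0.013) and 1.04 ± 0.26 in PE (adjusted p = 0.015), with no overlap, and kept each call in 2 of 4 cases with a library left out. Its difference of −0.47 in vehicle passed with the block alone (adjusted p = 0.0027).

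Mvd stood at 13.4 and 12.4 FPKM in vehicle with JQ1, at 17.5 and 15.1 in ET-1 with JQ1 and at 16.7 and 14.7 in PE with JQ1. The 4 agonist libraries with JQ1 all lay below those with an agonist alone, and 3 of the 4 lay above both libraries of vehicle without JQ1. It fell by 0.78 ± 0.12 in ET-1 (adjusted p = 0.0016) and by 0.60 ± 0.12 in PE (adjusted p = 0.0054), and kept both calls with each library left out. In vehicle its difference was −0.14 and did not pass.

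The next enzymes differed between replicates. Hmgcs1 stood at 129 and 58.7 FPKM in vehicle with JQ1, at 171 and 75.5 in ET-1 with JQ1 and at 189 and 88.8 in PE with JQ1. Fdps stood at 274 and 88.3, 406 and 122, and 384 and 126 in the same groups. Replicate 1 was the higher in all of these groups, by up to 2.26-fold for Hmgcs1 and 3.33-fold for Fdps, while the replicates of both genes lay much closer together without JQ1. Fdps fell with the block in ET-1 (by 1.18, adjusted p = 0.046) and PE (by 1.36, adjusted p = 0.028), and did not pass without it (0.24 and 0.19). Hmgcs1 did not pass in either fit.

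Idi1 stood at 73.1 and 36.3 FPKM in vehicle with JQ1, at 104 and 59.4 in ET-1 with JQ1 and at 130.1 and 71.1 in PE with JQ1. Sqle stood at 31.4 and 18.2, 39.4 and 26.4, and 40.8 and 30.4 in the same groups. Both genes were higher with JQ1 in replicate 1 and lower in replicate 2 in all 3 treatments. In replicate 1 the log2 differences in ET-1 and PE were small, at 0.13 and 0.08 for Idi1 and 0.07 and 0.01 for Sqle. Hsd17b7 stood at 2.92 and 1.98, 3.45 and 2.73, and 4.14 and 3.31 in these groups, and fell with the block in ET-1 (by 0.52, adjusted p = 0.0076) and PE (by 0.37, adjusted p = 0.032).

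Of the other enzymes, Acat2, Fdft1, Cyp51, Msmo1, Nsdhl and Sc5d fell with the block in both ET-1 and PE, and Tm7sf2 in ET-1 (by 0.45). None of them passed without the block, and there the sign of Tm7sf2 turned when replicate 1 of ET-1 (0.04) or replicate 2 of ET-1 with JQ1 (0.15) was left out. In ET-1 and PE, Fdft1 differed by −1.09 and −1.03 (adjusted p with the block 0.023 and 0.028), and Msmo1, the sterol C4-methyl oxidase, by −0.97 and −1.04 (0.022 and 0.016). Cyp51 differed by −0.69 and −0.73 (0.042 and 0.035). Nsdhl, Sc5d and Acat2 differed by −0.45 to −0.72. Mvk, Lss, Ebp and Dhcr7 did not pass in any treatment in either fit.

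In the fatty acid arm, Elovl6 responded evenly to JQ1. It stood at 2.33 and 1.58 FPKM in vehicle with JQ1, at 3.64 and 3.35 in ET-1 with JQ1 and at 3.75 and 2.93 in PE with JQ1. Each JQ1 library lay below its matching library without JQ1, and the fall was 0.95 ± 0.18 in vehicle (adjusted p = 0.0058), 1.07 ± 0.18 in ET-1 (adjusted p = 0.0028) and 1.05 ± 0.18 in PE (adjusted p = 0.0032). It kept each call with each library left out. Elovl5 stood at 44.3 and 38.1 in vehicle with JQ1, at 57.0 and 52.8 in ET-1 with JQ1 and at 62.7 and 55.6 in PE with JQ1. It rose in vehicle (by 0.59 ± 0.12, adjusted p = 0.0081, kept in 2 of 4 cases with a library left out), and its differences of 0.26 in ET-1 and 0.24 in PE passed with the block alone. The 2 elongases thus had differences of opposite sign with JQ1 and of the same sign with the agonists.

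Acly was higher with JQ1. It stood at 42.0 and 27.7 FPKM with vehicle, at 44.6 and 31.3 with ET-1 and at 47.5 and 32.7 with PE. With JQ1 it stood at 112 and 52.2 in vehicle, at 98.6 and 44.6 in ET-1 and at 109 and 51.3 in PE. Within a replicate every JQ1 library was the higher, and the rise of 1.15, 0.82 and 0.92 passed with the block alone (adjusted p = 0.0013, 0.0056 and 0.0034).

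Fads2, the delta-6 desaturase of polyunsaturated fatty acids, stood at 30.6 and 12.5 FPKM with vehicle, at 47.1 and 22.3 with ET-1 and at 44.3 and 21.3 with PE. With JQ1 it stood at 25.3 and 5.65 in vehicle, at 26.1 and 4.61 in ET-1 and at 26.0 and 5.07 in PE. JQ1 libraries were lower in each replicate, and Fads2 fell with the block in ET-1 (by 1.5, adjusted p = 0.0078) and PE (by 1.37, adjusted p = 0.012). Fads1, its delta-5 partner, fell likewise by 1.15 (adjusted p = 0.012) and 0.96 (adjusted p = 0.027). Acaca stood at 16.2 and 8.85 in vehicle with JQ1, at 17.1 and 11.8 in ET-1 with JQ1 and at 17.0 and 12.2 in PE with JQ1. Fasn stood at 50.1 and 15.5, 61.3 and 19.1, and 61.7 and 21.6 in the same groups. Neither passed in any treatment in either fit, and both were higher with JQ1 in replicate 1 and lower in replicate 2. For Acaca these log2 differences were small, at 0.18, 0.09 and 0.08 in replicate 1 and −0.12, −0.22 and −0.07 in replicate 2.

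The exporters with JQ1 kept their wide gap between replicates. Abca1 stood at 19.1 and 2.69 FPKM in vehicle with JQ1, at 15.8 and 2.10 in ET-1 with JQ1 and at 17.2 and 2.22 in PE with JQ1. It fell in vehicle with the block (by 0.53, adjusted p = 0.0073), and without the block its sign turned when replicate 1 of vehicle (0.56) or replicate 2 of vehicle with JQ1 (0.77) was left out. Abcg1 stood at 37.4 and 10.1, 36.3 and 5.08, and 43.1 and 5.46 in the same groups and did not pass in any treatment. Fibroblast markers fell with JQ1 as well, all 8 with the block in each treatment, with medians of −1.11, −0.79 and −0.59, and so did 3 to 5 of the 5 macrophage markers tested. Smooth muscle markers fell too, 5 of 6 with the block in each treatment, with medians of −0.72, −0.70 and −1.01, and so did 2 of the 3 endothelial markers tested. Of all genes 27.9%, 29.8% and 29.7% fell with the block in vehicle, ET-1 and PE. Without the block 16.7%, 19.6% and 19.0% of all genes fell. There 0 fibroblast, macrophage or endothelial markers fell, and 1, 2 and 2 smooth muscle markers did. The cardiomyocyte markers had medians of 0.01, −0.08 and −0.02, but single markers moved both ways. They ranged over −0.80 to 1.08 in vehicle, −1.71 to 0.98 in ET-1 and −1.32 to 1.09 in PE. With the block 1, 1 and 2 of the 8 rose and 2 fell in each treatment. The part of these cell types in the JQ1 differences of the members was not tested.

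Under JQ1 the agonist differences of the sterol enzymes were smaller. The median of the 18 enzymes was 0.26 with ET-1 and 0.31 with PE, beside −0.01 over all genes for each, with 16 and 17 of 18 above 0. Without the block 0 of the 33 members passed in either comparison, while 0.319% of all genes rose with ET-1 and 0.384% with PE, and 2355 and 2246 genes had an unadjusted p under 0.05. With the block 4 members rose with ET-1 (Mvd, Scap, Elovl5 and Elovl6, against 4.92% of all genes) and 5 with PE (the same 4 genes and Hsd17b7, against 6.17%). Leaving out 1 library lowered both counts, but a group then holds 1 library, and calls over all genes are not given there. A replicate term fitted separately for libraries without and with JQ1 was an alternative chosen after the data were seen. With it 14 members rose in each comparison, against 7.0% and 7.8% of all genes. For ET-1 it also gave 1 member that fell, while 1172 of all 13793 genes fell.

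Elovl6 kept most of its agonist difference under JQ1, with 0.72 ± 0.18 for ET-1 and 0.66 ± 0.18 for PE (adjusted p = 0.10 and 0.13, with the block 0.0081 and 0.012). Mvd, by contrast, differed by 0.32 and 0.27 (with the block adjusted p = 0.021 and 0.036), and Pmvk by 0.03 and 0.13. Idi1 differed by 0.60 and 0.89, and Fdps by 0.51 and 0.50, without passing in the fit with the block. The difference of the JQ1 effect between agonist and vehicle, which is also that of the agonist effect under and without JQ1, was tested by itself. It was negative for all 18 enzymes with ET-1 (median −0.59) and with PE (median −0.49), beside 0.01 over all genes. It passed for 0 of the 33 members and for 0.0% of all genes in either agonist, also with the block for the members, where 616 and 717 genes had an unadjusted p under 0.05 without it.

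PE and ET-1 were also compared with each other, and no member passed. Without JQ1 the median of the 33 members, PE minus ET-1, was 0.03, with a range of −0.23 to 0.35, and 0 of 33 passed against 0.00725% of all genes, with 206 genes at an unadjusted p under 0.05. Under JQ1 the median was 0.09, with a range of −0.12 to 0.29, and 0 of 33 passed against 0.0% of all genes, with 471 at an unadjusted p under 0.05. With the block 0 members passed in either. Mvd had the lowest value without JQ1, at −0.23 ± 0.12 SE, and Idi1 the highest, at 0.35 ± 0.40, so the spread leaves room for differences of this size.

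In these libraries the JQ1 difference varied with the replicate number for part of the pathway. In a test chosen after the data were seen, with agonist effects taken as equal in both replicates, the JQ1 effect in replicate 1 minus that in replicate 2 was positive for 31 of the 33 members and for all 18 sterol enzymes. Its median was 0.55 over the members and 0.01 over all genes. It passed upward for 9 members (Hmgcs1, Idi1, Fdps, Fdft1, Sc5d, Insig1, Acly, Fads1 and Fads2), against 0.131% of all genes, or 18 genes in all. Another 20 genes passed downward, with no member among them. Each treatment had 1 library per replicate number with JQ1 and 1 without it. The SE and p-values of this test therefore rest on the spread between treatments, not on repeats of a treatment. Whether the gap would recur in other cultures was not tested.

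Fdps had the largest of these differences, 1.34 ± 0.14 SE (limma, adjusted p = 0.026). Its JQ1 effect was 0.38, −0.49 and −0.58 in vehicle, ET-1 and PE in replicate 1, and −0.71, −1.88 and −2.13 in replicate 2. Idi1 differed by 1.08 ± 0.10 (adjusted p = 0.022), with effects of 0.89, 0.13 and 0.08 in replicate 1 and −0.15, −0.97 and −1.04 in replicate 2. Fads2 differed by 1.11 ± 0.10 (adjusted p = 0.022), and was lower with JQ1 in both replicates.

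Idi1, Sqle, Acaca and Fasn had effects of opposite sign in the replicates in all 3 treatments, higher with JQ1 in replicate 1 and lower in replicate 2. Some of these effects were near 0, as for Sqle in replicate 1 in ET-1 (0.07) and PE (0.01). The share of all genes with such opposite signs was not counted. Abcg1 was lower with JQ1 in replicate 2 throughout, and in replicate 1 its effect was 0.00, 0.04 and 0.36 in vehicle, ET-1 and PE. The gap was near 0 for Mvd (0.01), Elovl5 (−0.01), Insig2 (0.03), Mvk (0.05), Pmvk (0.05), Scap (−0.06), Lss (0.08, with an SE of 0.22) and Elovl6 (0.10). Each library left out takes its pair out of this test. With any library of the ET-1 or PE groups left out, without or with JQ1, the 9 calls were lost. Few or no genes of any kind passed there. With either library of vehicle with JQ1 left out, more members and more of all genes passed. With either library of vehicle without JQ1 left out, fewer members and fewer of all genes passed, and the set of members called changed. In every case 28 to 32 members were positive. Across all 6 groups, 25 of the 33 members were higher in replicate 1 in every group, against 18.6% of all genes, and within the 3 groups with JQ1 31 of 33 were, against 29.0%. All 8 fibroblast and all 9 macrophage markers were higher in replicate 1 in every group. The part of these cells in the difference between replicates was not tested.

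**Figure D4:**
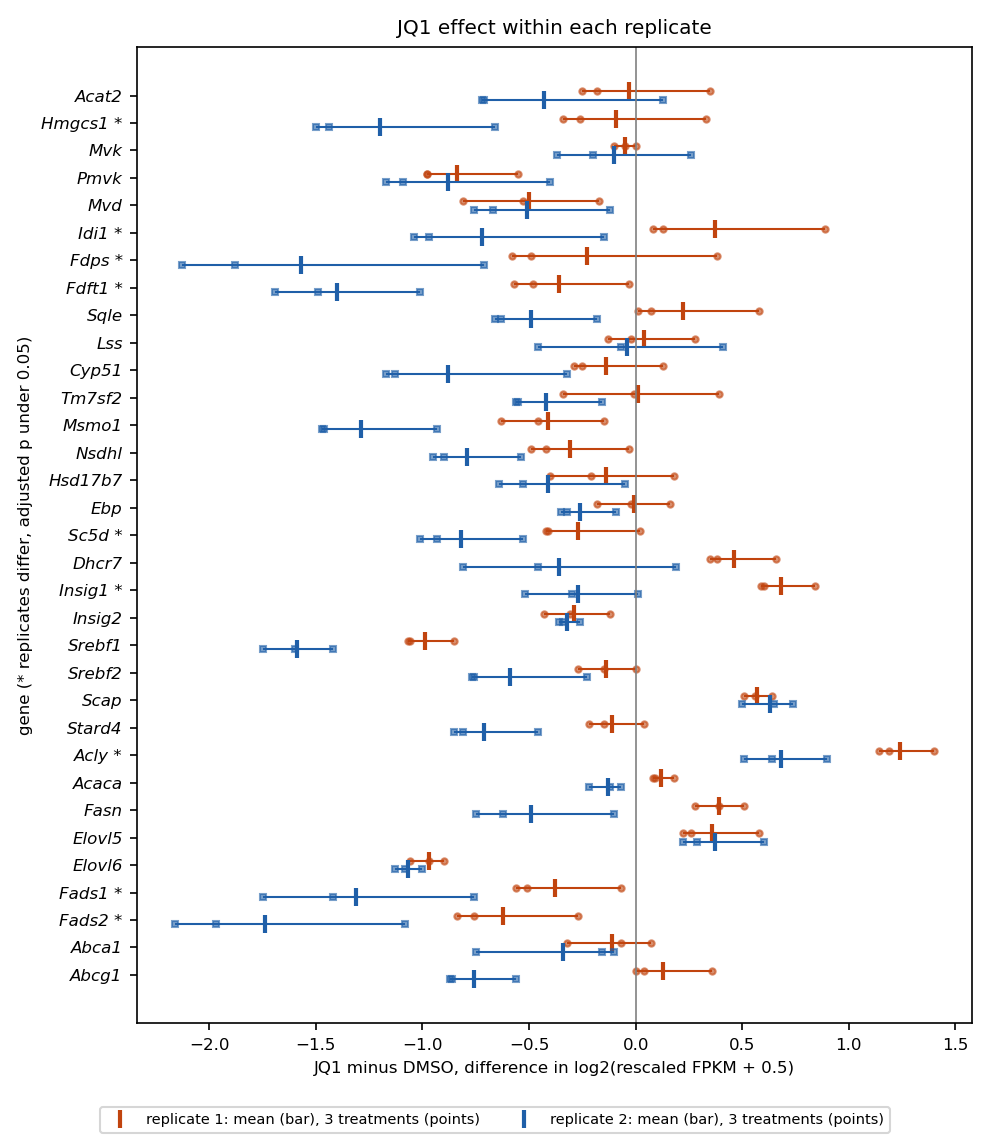
JQ1 minus DMSO difference in log2(rescaled FPKM + 0.5) for the 33 genes within replicate 1 (orange circles) and replicate 2 (blue squares), with 1 point for each treatment and a bar at their mean. An asterisk marks the 9 genes whose replicates differed at an adjusted p under 0.05, and the points of both replicates lie close together for Mvd, Scap, Elovl5 and Elovl6.

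Genes around the pathway were read from 5 lists of related genes, of which 41 genes were tested. With ET-1 2 of the 41 rose (Tmem97 and Hsd17b12) and 0 fell, against 1.31% and 1.57% of all genes, and with PE the same 2 rose and 1 fell (Gpam), against 2.89% and 3.18%. With the block 11 rose and 7 fell with ET-1, against 8.89% and 9.5% of all genes, and 10 rose and 7 fell with PE, against 11.8% and 12.2%. Tmem97, a sterol-responsive membrane protein, rose by 0.90 ± 0.09 with ET-1 (adjusted p = 0.012) and 1.02 ± 0.09 with PE (adjusted p = 0.0056), and it also rose with PE under JQ1 (0.62 ± 0.09, adjusted p = 0.041). Hsd17b12, the ketoreductase of fatty acid elongation, rose by 0.83 and 0.95 (adjusted p = 0.037 and 0.017). Gpam, which starts glycerolipid synthesis, fell by 0.69 with PE (adjusted p = 0.044). The median of the 41 was −0.03 with ET-1 and 0.12 with PE, against 0.68 and 0.69 for the 33 members.

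With JQ1, 2 of the 41 rose and 10 fell in vehicle, against 15.3% and 16.7% of all genes. In ET-1 3 rose and 11 fell, against 17.9% and 19.6%, and in PE 4 rose and 13 fell, against 17.5% and 19.0%. With the block 10 rose and 16 fell in vehicle (24.9% and 27.9% of all genes), 9 and 18 in ET-1 (27.1% and 29.8%), and 7 and 19 in PE (26.7% and 29.7%). Those with the smallest adjusted p were the same in each treatment. Acacb, the carboxylase isoform whose product restrains fatty acid oxidation, fell by 2.06, 2.54 and 2.15 (adjusted p = 0.001, 0.00029 and 0.00062). Agpat2, an enzyme of glycerolipid synthesis, fell by 1.21, 1.40 and 1.13 (adjusted p = 0.00032, 0.00012 and 0.00028). Dgat2, which completes triglycerides, rose by 1.40, 1.67 and 1.78 (adjusted p = 0.0011, 0.00036 and 0.00032).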

How the data were processed

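The deposited tables, 1 per library, list transcripts with FPKM, which the authors normalized for transcript length and library depth, and with read coverage as a signal that the authors did not normalize, per the file headers. The submitters' processing notes name build rn6 and, in no stated order, StringTie 1.3.4d, DESeq2 1.24.0, Trim Galore 0.6.0 and STAR 2.7.1a. The strand setting of the counting was not given in the sources used here. Depth was taken as coverage times length (2.34 to 2.97 gigabases per library), and intervals from read counts were not possible.

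FPKM of 41078 transcripts was summed to 32883 genes in Python 3.11.15 and each library was rescaled by its median ratio to the mean library over the 15551 genes above 0 throughout (factors 0.873 to 1.13). The 13793 genes with 1 or more rescaled FPKM in 2 or more libraries were fitted in R 4.3.3 with limma 3.58.1 (trend, robust) on log2(value + 0.5), with 6 group means over all 12 libraries, and p-values were adjusted by the Benjamini-Hochberg method over these genes, with a threshold of 0.05. The procedure was tested on simulated data. The replicate number comes from the library titles. Deviations of same-numbered libraries correlated in all 15 pairs of groups (0.16 to 0.67), so the numbers were taken to pair the libraries, and the fit with the replicate block is given beside the counts and the members whose call it changes.

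Alternatives were the replicate block, FPKM as deposited, a pseudocount of 1, no filter on low values, coverage-derived bases per kilobase, and each library left out. A replicate block fitted separately without and with JQ1, and the test between replicates that it gives, were added after the data were seen. Members and lists were chosen with earlier results of these data known. Values per library are given for members called without the block, for key enzymes, regulators and exporters, and for the largest difference per group of genes among those called with the block. Of the related lists, at most 3 genes per comparison are named, by smallest adjusted p. Promoters came from RefSeq and were searched only by letters.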

Additional observations from a re-analysis of the deposited data

Results flagged for a closer look

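The JQ1 effect in replicate 1 minus that in replicate 2, on the log2 scale, differed from 0 at an adjusted p under 0.05 (limma) for 9 members. The values were 1.34 for Fdps, 1.11 for Hmgcs1, 1.11 for Fads2, 1.08 for Idi1, 1.04 for Fdft1, 0.95 for Insig1, 0.93 for Fads1, 0.56 for Acly and 0.55 for Sc5d. Another 3 members had effects of opposite sign in the replicates in all 3 treatments, though their differences did not pass: 0.71 for Sqle, 0.88 for Fasn and 0.25 for Acaca. Some of these effects were near 0, such as 0.07 and 0.01 for Sqle in ET-1 and PE in replicate 1. In PE Acaca had 0.08 in replicate 1 and −0.07 in replicate 2. Abcg1, at 0.90, did so in ET-1 and PE, with an effect of 0.00 in vehicle in replicate 1, and did not pass. The test was chosen after the data were seen, with 1 library per treatment and replicate.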

How the results depend on the processing

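With the replicate block the number of members called rose from 3 to 14 for ET-1, 4 to 17 for PE, 3, 4 and 5 to 8, 20 and 18 for JQ1 in vehicle, ET-1 and PE, and 0 and 0 to 4 and 5 for ET-1 and PE under JQ1. With the block fitted separately without and with JQ1, the same counts were 25, 26, 18, 24, 23, 15 and 14. The counts over all 13793 genes rose too. In the same order they were 396, 837, 4411, 5168, 5030, 187 and 99 without the block. With the block they were 2537, 3314, 7279, 7849, 7782, 1601 and 1664. With the separate block they were 3142, 3837, 7664, 8186, 8162, 2138 and 2044. On FPKM as deposited 0 members passed for either agonist, and of all genes 208 passed with ET-1 and 532 with PE. With a library left out, without or with the block, the counts ranged over 0 to 8 for ET-1, 0 to 11 for PE, 2 to 8, 3 to 21 and 3 to 19 for JQ1 in vehicle, ET-1 and PE, and 0 to 3 for each agonist under JQ1. For the difference between replicates, calls were lost with some libraries left out and gained with others, among all genes as among the members. The count was 0 under every alternative for PE against ET-1 and for the differences of the JQ1 effect. Of 19 single calls, the replicate block kept 19, FPKM as deposited 10, a pseudocount of 1 kept 19, no filter 16 and bases per kilobase 18, while leaving out a library kept 39 of 76. Signs turned without the block for Abca1, which ranged over −2.03 to 0.58 with ET-1 (0.37 without vehicle replicate 1), −1.91 to 0.56 with PE (0.42 without vehicle replicate 1) and −1.84 to 0.77 with JQ1 in vehicle (0.56 without vehicle replicate 1). They turned for Tm7sf2 with JQ1 in ET-1, which ranged over −1.06 to 0.15 (0.04 without ET-1 replicate 1). Those fits set 1 replicate of a group against both replicates of the other. Within replicates 1 and 2, Abca1 differed by −0.51 and −0.94 with ET-1, by −0.53 and −0.82 with PE, and by −0.32 and −0.75 with JQ1 in vehicle. Tm7sf2 differed by −0.34 and −0.56 with JQ1 in ET-1. The cause of the gap between replicates was not tested. With 2 libraries a group, the spread between replicates limits what can be called.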
